A study of Mus musculus with 134 samples.

Results

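The expression of 37 imprinted genes outside the Dlk1-Dio3 locus was described in mouse embryonic stem cells (mESCs). The genes were taken by name as known imprinted genes, by a rule that uses no measured value but was set with earlier results of these data known, and all 37 were among the 25208 genes of the bulk count files after removal of the precursor rRNA gene Rn45s. Of the 37, 24 lie in 7 imprinted clusters (Igf2-H19, Igf2r-Airn, Peg3, Mest, Peg10, Snrpn and Kcnq1), and 13 were treated as single loci. The paternal allele is the expressed allele of 23, the maternal allele of 8, and 6 have an allele that depends on the tissue or transcript. The counts do not separate the alleles, so each level is the sum of both.

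An imprinted gene is read mainly from the copy inherited from the mother or from the copy inherited from the father. In most clusters an imprinting control region carries DNA methylation on 1 parental copy, set in the germ line, and this methylation is kept after fertilization by the DNA-binding protein ZFP57, its partner TRIM28 and DNA methyltransferases. At another group of genes, including Sfmbt2 and Slc38a4, Polycomb marks such as H3K27me3 act in the embryo or the placenta. Aebp2 is an accessory subunit of the Polycomb repressive complex 2 that writes H3K27me3.

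Expression was read from 54 bulk libraries labelled as E14 and described as ES-E14TG2a, an established feeder-free mESC line grown in serum with LIF and known to lack a working Hprt gene, with 2 libraries in each of 27 conditions. SET-seq splits a sample into nuclei, used for histone profiling, and cytoplasmic RNA, which is reverse transcribed from an oligo-dT primer and tagmentated by Tn5 as an mRNA/cDNA hybrid at 37 °C. Wild type (WT) SET-seq comprised 6 libraries with an H3K27me3 antibody and 6 with an H3K4me3 antibody, each from 100, 1000 or 10000 cells, and 8 libraries without antibody from 10 to 10000 cells. The Aebp2 knockout (KO) comprised 2 clones made by CRISPR/Cas9 with different sgRNAs, KO1 and KO2, with 2 H3K27me3 SET-seq libraries each. Each clone is a single line, and its cell number was not stated. The other libraries were 28 in vitro libraries from total RNA, of which 8 were tagmentated at 37 °C and 8 at 16 °C for 5, 10, 15 or 30 min, 6 tested Tn5 amounts and 6 tested RNA amounts, and a pair of ligation-based libraries from poly-A RNA. Single cells were those of Wnt3a-bead experiments, in which the daughter cell on the bead (proximal) and the other daughter (distal) were sampled.

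Without Rn45s, depth was 935126 to 1124026 counts in KO, 1237504 to 6046513 counts in WT H3K27me3 SET-seq, 188275 to 7522420 counts in SET-seq without antibody, 754239 to 6260072 counts in vitro at 37 °C and 13906615 to 14065944 counts in the ligation-based libraries. Rn45s itself, removed from all levels, took 48.8 to 56.7% of the counts in KO, 21.9 to 29.7% in WT H3K27me3 SET-seq and 33.0 to 40.7% in vitro at 37 °C, so its share did not overlap between KO and either reference, and its part in the results below was not tested. Levels are given in CPM, the count of a gene relative to that total, and RPKM, which also divides by exon length. The X-linked gene Hprt, a purine salvage enzyme, split the libraries into sets that do not follow genotype: it was at 0 to 2.14 CPM in the 32 in vitro and KO libraries, of which 20 had no count, and at 66.2 to 485 CPM in the 22 WT SET-seq and ligation-based libraries. The 22 libraries with Hprt thus go against the line as described. A difference between KO and WT SET-seq, or between in vitro libraries and WT SET-seq or ligation-based libraries, therefore cannot be told apart from whatever separates these sets, and the KO is also given against the in vitro libraries, which share the low Hprt. Aebp2 itself was at 15.7 and 15.0 CPM in KO1 and 49.7 and 30.2 CPM in KO2 and at 34.7 to 76.0 CPM in WT (log2 fold change -1.07, SE 0.19, adjusted p = 0.000336), and exon counts do not read a small deletion at a guide site. Summed over 8 stem cell markers, CPM was 3505 to 4059 in KO and 5090 to 5571 in WT. Sums over 8 fibroblast markers were 6.23 to 20.9 in KO and 0.846 to 17.4 in WT, and over 8 endoderm markers 4.45 to 9.81 and 0.662 to 26.4. In such bulk libraries, fewer cells that express a gene and less RNA per cell cannot be told apart.

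The 300 bases around the start site of 4 genes are printed first, because these genes are among those tested below and their windows hold the hexamer TGCCGC, the short motif that ZFP57 is known to bind when it is methylated. Windows run from 250 bases before to 50 after a RefSeq start (GRCm38.p6), read in the direction of the gene, and capitals mark TGCCGC or its reverse complement GCGGCA.

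Mest, chr6:30737800-30738099, plus strand: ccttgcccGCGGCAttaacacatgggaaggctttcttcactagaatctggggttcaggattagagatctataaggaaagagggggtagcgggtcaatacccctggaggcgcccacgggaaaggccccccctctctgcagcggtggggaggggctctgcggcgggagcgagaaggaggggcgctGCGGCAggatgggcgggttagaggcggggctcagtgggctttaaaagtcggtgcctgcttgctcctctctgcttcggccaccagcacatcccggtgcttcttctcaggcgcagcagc

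Plagl1, chr10:13090582-13090881, plus strand: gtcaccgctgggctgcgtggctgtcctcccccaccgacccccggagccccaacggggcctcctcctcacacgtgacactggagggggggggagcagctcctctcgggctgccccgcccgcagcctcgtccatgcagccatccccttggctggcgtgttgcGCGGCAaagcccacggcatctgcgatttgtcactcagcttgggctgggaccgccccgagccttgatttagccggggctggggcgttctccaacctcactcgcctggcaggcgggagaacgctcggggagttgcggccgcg

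Nnat, chr2:157559828-157560127, plus strand: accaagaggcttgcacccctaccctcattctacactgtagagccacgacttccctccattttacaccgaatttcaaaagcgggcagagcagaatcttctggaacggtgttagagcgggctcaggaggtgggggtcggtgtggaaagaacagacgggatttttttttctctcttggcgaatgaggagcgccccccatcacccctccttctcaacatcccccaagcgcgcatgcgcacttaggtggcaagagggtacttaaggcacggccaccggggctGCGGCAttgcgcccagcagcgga

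Zdbf2, chr1:63200108-63200407, plus strand: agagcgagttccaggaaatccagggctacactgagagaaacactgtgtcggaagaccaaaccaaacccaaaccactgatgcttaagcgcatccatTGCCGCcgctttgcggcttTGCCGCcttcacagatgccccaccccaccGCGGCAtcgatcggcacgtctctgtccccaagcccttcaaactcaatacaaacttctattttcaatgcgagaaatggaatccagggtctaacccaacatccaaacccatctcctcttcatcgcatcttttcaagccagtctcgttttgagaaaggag

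The windows printed held 2 hexamers for Mest, 1 each for Plagl1 and Nnat, and 3 for Zdbf2. Other start sites of these genes are not printed: the window of Mest at chr6:30733256-30733555 and that of Zdbf2 at chr1:63273019-63273318 held none, and a window of Mest at chr6:30737803-30738102 overlaps the printed one. RefSeq windows were matched for 31 of the 37 genes, with 48 windows in all. The hexamer was in 12 of these windows (25.0%), against 11.6% of all 32851 windows, and 11 of the 31 genes had it in at least 1 window (35.5%), against 13.1% of all genes. The median number of CpG dinucleotides was 15 in the windows of these genes and 7 in all windows. The match is a description of letters and does not show binding.

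In WT H3K27me3 SET-seq the levels spread over a wide range. Per kilobase of exon (RPKM, mean ± SD of 6 libraries), the highest levels were those of Phlda2, a placental growth regulator, at 136 ± 12.7, and of the translation factor paralogue Mcts2, at 106 ± 16.9. Impact, a regulator of translation under stress, followed at 49.7 ± 2.97. Gnas, which encodes the stimulatory G protein alpha subunit, stood at 33.1 ± 4.03, and the zinc finger gene Plagl1 at 29.6 ± 5.90, and these 2 neighbours in the order did not differ beyond their spread. Ndn was at 21.4 ± 2.01 RPKM. The hydrolase gene Mest at 15.8 ± 3.87 and the retrotransposon-derived gene Peg10 at 15.5 ± 8.38 also overlapped. The lower part of the order, from Copg2 (4.41 ± 0.709 RPKM) to Igf2r (2.24 ± 0.853 RPKM), is formed by genes whose neighbours overlap within their SD. At the bottom were Rasgrf1 at 0.081 ± 0.108 RPKM and the potassium channel gene Kcnq1 at 0.0496 ± 0.121 RPKM, and Snrpn was at 0. Snrpn had 10 counts over all 54 libraries and shares 72.3% of its exon bases with the overlapping Snurf and Snhg14, on which reads were not counted, so its level is not measured well here. All 37 genes had at least 3 counts in some library.

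**Figure D1:**
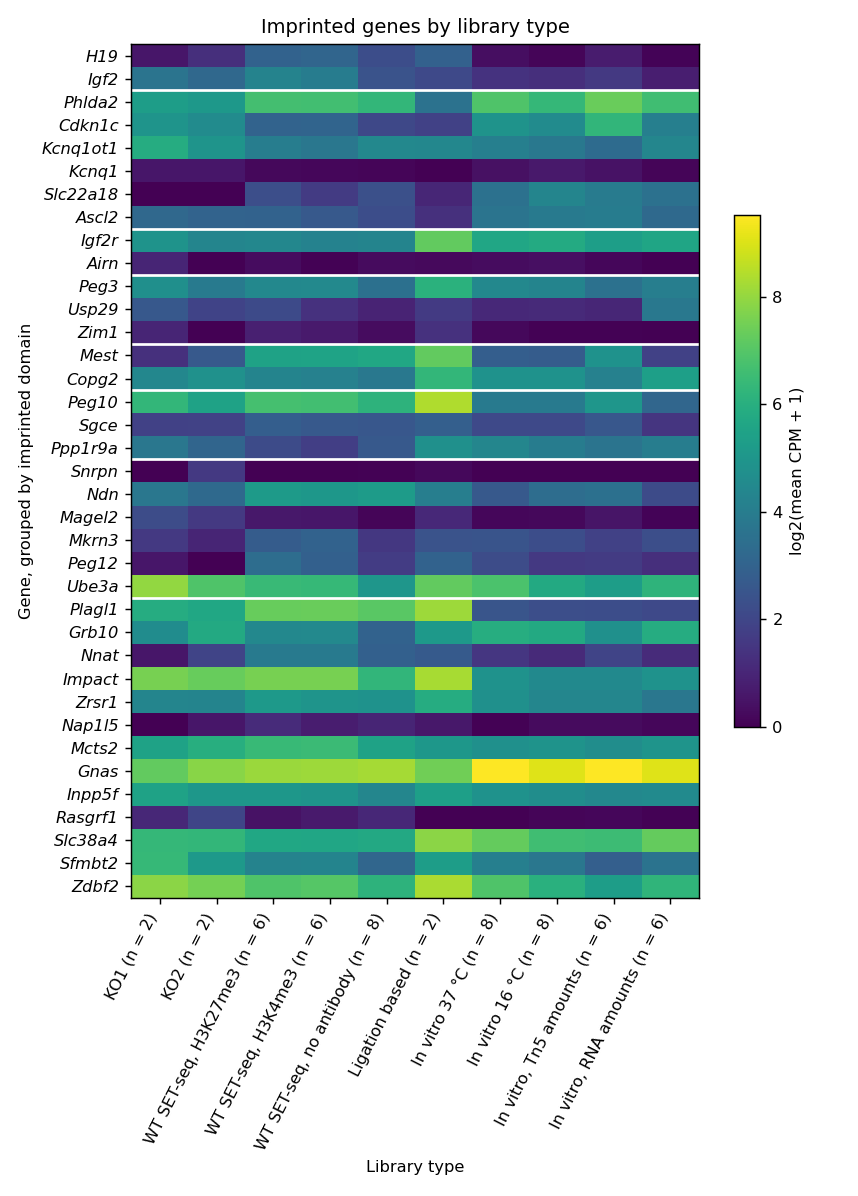
Mean expression of the 37 imprinted genes in each kind of bulk library, as a colour scale of log2(mean CPM + 1), with white lines between clusters. Gnas is bright in each kind of library, while Snrpn, Airn, Kcnq1 and Rasgrf1 stay dark, and Plagl1, Mest and H19 are darker in the in vitro libraries at 37 and 16 °C than in WT SET-seq and ligation-based libraries.

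The comparison of KO with WT H3K27me3 SET-seq asks how these genes stood in the Aebp2 KO clones. Mest, Nnat, Plagl1, Phlda2, Ndn, Peg12 and Slc22a18 were lower in every KO library than in any WT library, and Cdkn1c, Sfmbt2, Slc38a4 and Zdbf2 were higher. Of the 37 genes, 30 passed the filter on low counts, and 22 of the 30 (73.3%) had an adjusted p below 0.05 in edgeR's quasi-likelihood test, against 51.0% of all 11446 genes tested. Of the 22, 8 were higher in KO, against a background of 24.6%, and 14 were lower, against 26.4%. Among these 14, H19, Mest, Nnat, Mkrn3, Peg12 and Slc22a18 passed the filter through their WT libraries, with KO levels too low to pass. A lower level in KO was thus set by how they came to be tested. They enter the median and, except for H19, the count of genes without overlap that follow. The median log2 fold change was -0.32 over the 30 genes and -0.03 over all genes tested. In 13 of the 30 the CPM of the 4 KO and 6 WT libraries did not overlap, 9 lower and 4 higher in KO, against 33.1% of all genes. Against WT, KO1 alone had 17 of the 30 genes called (background 43.7%) and KO2 alone had 14 (background 38.5%). The 2 libraries of a clone share a cell line, and with counts summed per clone and per WT condition 12 of 30 genes were called, against 30.1% of all 12257 genes tested in that way. The 10 calls lost there were those of Cdkn1c, Gnas, Grb10, H19, Igf2, Mcts2, Mkrn3, Peg10, Ppp1r9a and Zrsr1 (adjusted p of 0.0556 to 0.192). Against all WT SET-seq libraries together, 6 calls were lost, those of Igf2, Mcts2, Mkrn3, Peg10, Peg12 and Zrsr1, and against WT SET-seq without antibody those of H19, Mcts2, Peg10 and Ppp1r9a. Airn, Zim1, Snrpn, Magel2, Nap1l5, Kcnq1 and Rasgrf1 were not tested, with at most 3.77 CPM in any WT library of the set and at most 4.97 CPM in any KO library.

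**Figure D2:**
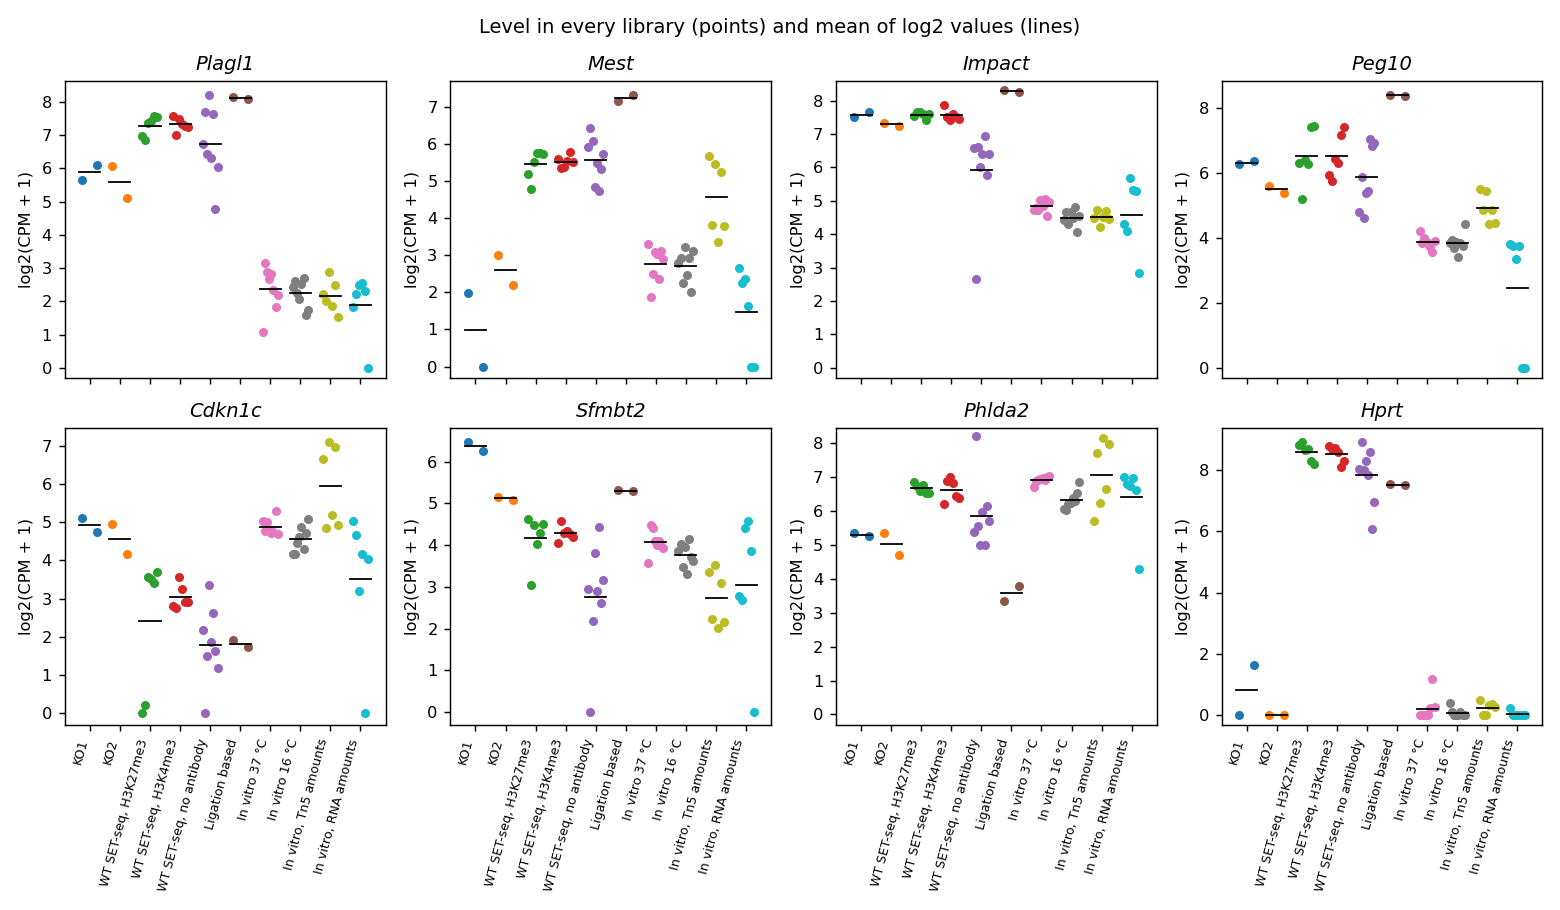
CPM of 7 imprinted genes and Hprt in every library, on a log2(CPM + 1) axis, by kind of library. Points are libraries and lines are means of log2(CPM + 1). Plagl1, Mest and Phlda2 are lower in KO than in WT H3K27me3 SET-seq and Sfmbt2 is higher, while Plagl1 and Peg10 in KO lie above the in vitro libraries at 37 °C.

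In the Mest cluster, Mest (chromosome 6, 30683506 to 30698466, plus strand, mm9) was at 2.94 and 0 CPM in KO1 and 6.96 and 3.56 CPM in KO2. In WT it stood at 26.8 CPM at the lowest, 48.0 CPM at the median and 52.8 CPM at the highest. Every KO library was thus below every WT library, and Mest fell 14.7-fold (log2 fold change -3.87, SE 0.37, adjusted p = 1.44e-06). Copg2, a coatomer subunit gene whose exons share 21.7% of their bases with Mest on the other strand, had a log2 fold change of 0.37 (adjusted p = 0.226), and counting did not use strand. In the Peg10 cluster, Peg10 was lower in KO (log2 fold change -0.62, SE 0.20, adjusted p = 0.0198), and its libraries overlapped, 40.9 to 81.3 CPM in KO and 36.2 to 175 CPM in WT. The call was lost without any 1 of the 4 KO libraries, with adjusted p of 0.0515 to 0.0777. Ppp1r9a, which encodes the actin-binding protein neurabin, was at 13.7 and 11.8 CPM in KO1 and 10.9 and 4.45 CPM in KO2. In WT it stood at 1.45 CPM at the lowest, 3.14 CPM at the median and 6.91 CPM at the highest. It was higher in KO on average (log2 fold change 1.63, SE 0.55, adjusted p = 0.0251), the lowest KO library lay within the WT range, and the call was lost without KO1 replicate 1 or 2, KO2 replicate 1, replicate 2 of 1000 cells or either replicate of 10000 cells, with adjusted p of 0.057 to 0.142. Sgce, a sarcoglycan gene, had a log2 fold change of -1.16 (adjusted p = 0.141).

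In the Igf2-H19 cluster, both genes were lower in KO at these low levels. The noncoding RNA gene H19 (chromosome 7, 149761435 to 149764051, minus strand, mm9) was at 0.981 and 0 CPM in KO1 and 1.99 and 0.89 CPM in KO2. In WT it was at 0.662 CPM at the lowest, 7.04 CPM at the median and 13.7 CPM at the highest, and the lowest WT library, of 100 cells, lay below 1.99 CPM, the highest of KO. H19 fell by 2.62 on the log2 scale (SE 0.87, adjusted p = 0.0225). The call was lost without KO1 replicate 2, KO2 replicate 2, replicate 2 of 1000 cells or replicate 1 of 10000 cells, with adjusted p of 0.0601 to 0.0888. Igf2, a growth factor gene, was at 4.45 to 11.9 CPM in KO and 13.9 to 19.4 CPM in WT, without overlap (log2 fold change -0.85, SE 0.31, adjusted p = 0.0356). This call was lost without any 1 of 7 libraries (both of KO1, KO2 replicate 2, and both replicates of 1000 and of 10000 cells), with adjusted p of 0.0806 to 0.151, and by DESeq2 (adjusted p = 0.100). The receptor gene Igf2r, which binds IGF2 for degradation, was at 18.7 to 32.4 CPM in KO and 11.2 to 29.1 CPM in WT and was not called (log2 fold change 0.31, SE 0.27, adjusted p = 0.364).

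In the Kcnq1 cluster, the members moved in both directions. Phlda2 (chromosome 7, 150687453 to 150688429, minus strand, mm9) was at 39.2 and 37.4 CPM in KO1 and 39.8 and 24.9 CPM in KO2. In WT it stood at 90.5 CPM at the lowest, 99.6 CPM at the median and 114 CPM at the highest, so that the groups did not overlap, and it was 2.79-fold lower in KO (log2 fold change -1.48, SE 0.15, adjusted p = 2.03e-06). Slc22a18, a transporter gene, had no count in any KO library. In WT it was at 1.18 CPM at the lowest, 2.94 CPM at the median and 8.10 CPM at the highest. Against a floor of 3 counts over the 4 KO libraries (0.735 CPM), the pooled WT level of 4.13 CPM makes it at least 5.63-fold lower in KO (adjusted p = 0.0119), and the floor covers counting error only. The cell cycle inhibitor gene Cdkn1c was at 33.4 and 25.7 CPM in KO1 and 29.8 and 16.9 CPM in KO2, while in WT it was at 0 and 0.165 CPM in the libraries of 100 cells and at 9.70 to 12.0 CPM in the other 4. It was higher in KO without overlap (log2 fold change 3.43, SE 0.37, adjusted p = 4.67e-06), and against the WT libraries of 10000 cells alone the log2 fold change was 1.36 (adjusted p = 0.000947). With counts summed per clone and condition it was 1.96 and the call was lost (adjusted p = 0.112). Kcnq1ot1, the long noncoding RNA that silences this cluster in cis, was at 56.9 and 61.0 CPM in KO1 and 40.8 and 18.7 CPM in KO2. In WT it was at 5.13 CPM at the lowest, 17.1 CPM at the median and 21.6 CPM at the highest, and it was higher in KO (log2 fold change 1.57, SE 0.27, adjusted p = 0.000259), with KO2 replicate 2 within the WT range. It lies within Kcnq1 on the other strand, so that without strand its reads cannot be told from unspliced Kcnq1 RNA. Ascl2, a trophoblast transcription factor gene, was at 6.23 to 8.55 CPM in KO and 2.42 to 13.5 CPM in WT and was not called (log2 fold change 0.21, SE 0.49, adjusted p = 0.755).

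In the Snrpn cluster, 3 of the 4 genes tested were lower in KO. Snrpn and Magel2 were not tested, and Magel2 went the other way, at 0 to 4.28 CPM in KO and 0 to 1.16 CPM in WT. Ndn, which encodes the MAGE family protein necdin (chromosome 7, 69493163 to 69494813, plus strand, mm9), was at 16.7 and 8.55 CPM in KO1 and 11.9 and 5.34 CPM in KO2. In WT it stood at 30.0 CPM at the lowest, 36.3 CPM at the median and 39.6 CPM at the highest, without overlap, and it was 3.31-fold lower in KO (log2 fold change -1.72, SE 0.27, adjusted p = 0.000137). Mkrn3, a RING finger gene, was at 2.94 and 1.07 CPM in KO1 and 1.99 and 0 CPM in KO2. In WT it was at 4.20 CPM at the lowest, 5.69 CPM at the median and 7.27 CPM at the highest. The groups did not overlap and the call was near the threshold (log2 fold change -2.00, SE 0.77, adjusted p = 0.0443), and it was lost without KO1 replicate 1 or 2, KO2 replicate 2 or replicate 1 of 10000 cells, with adjusted p of 0.0681 to 0.147, by DESeq2 (adjusted p = 0.055) and with a replicate block (adjusted p = 0.0526). Peg12, also called Frat3, a relative of the Wnt pathway gene Frat1, had 1 count in the 4 KO libraries and 254 in the 6 WT libraries, where it stood at 4.80 CPM at the lowest, 8.32 CPM at the median and 17.7 CPM at the highest. The ratio of WT to KO was 45.1 with an exact 95% interval of 8.03 to 1789 for counting error, and the adjusted p was 0.000323. Against all WT SET-seq libraries, where both libraries of 10 cells had no Peg12 count, the log2 fold change was -4.30 and the call was lost (adjusted p = 1.00). Ube3a, the ubiquitin ligase gene of Angelman syndrome, whose imprint is specific to neurons, was at 223 and 277 CPM in KO1 and 133 and 101 CPM in KO2 and at 69.7 to 106 CPM in WT, and was higher in KO (log2 fold change 1.04, SE 0.11, adjusted p = 4.27e-06).

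In the Peg3 cluster, neither gene tested was called. Peg3, a zinc finger gene, was at 12.5 to 28.5 CPM in KO and 8.10 to 30.1 CPM in WT (log2 fold change -0.05, SE 0.35, adjusted p = 0.915), and Usp29 at 1.99 to 5.89 CPM and 1.80 to 5.66 CPM (log2 fold change 0.26, SE 0.68, adjusted p = 0.779). Their intervals were -0.75 to 0.64 and -1.08 to 1.60 on the log2 scale (1.96 SE either side).

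Among the single loci, Plagl1 and Nnat fell most. Plagl1 (chromosome 10, 12810638 to 12851501, plus strand, mm9) was at 49.1 and 68.4 CPM in KO1 and 66.6 and 33.8 CPM in KO2. In WT it stood at 115 CPM at the lowest, 167 CPM at the median and 191 CPM at the highest. Every KO library was below every WT library, and the level in KO was 2.83-fold lower (log2 fold change -1.50, SE 0.15, adjusted p = 2.82e-06). Nnat, which encodes the membrane proteolipid neuronatin, was at 0.981 and 0 CPM in KO1 and 2.98 and 2.67 CPM in KO2, and in WT at 9.65 CPM at the lowest, 13.9 CPM at the median and 19.5 CPM at the highest, without overlap (log2 fold change -3.45, SE 0.52, adjusted p = 9.74e-05). Mcts2 was at 43.2 and 44.9 CPM in KO1 and 64.6 and 58.7 CPM in KO2. Its WT level was 59.7 CPM at the lowest, 89.2 CPM at the median and 95.9 CPM at the highest, and it was lower in KO (log2 fold change -0.65, SE 0.14, adjusted p = 0.00144) with overlapping libraries. This call was lost with counts summed per clone and condition (adjusted p = 0.0819) and against all WT SET-seq libraries (log2 fold change -0.42, adjusted p = 0.212), and against WT SET-seq without antibody the log2 fold change was -0.016 (adjusted p = 0.955). Mcts2 is a retrogene within H13, and reads shared with its near-identical parent Mcts1 map to several places and were not counted, so its level is uncertain. Gnas was at 140.3 and 159 CPM in KO1 and 207 and 248 CPM in KO2. Its WT level was 239.5 CPM at the lowest, 264 CPM at the median and 320.0 CPM at the highest, and it was lower in KO (log2 fold change -0.51, SE 0.10, adjusted p = 0.000674), with KO2 replicate 2 within the WT range and the other 3 KO libraries below it. With counts summed per clone and condition the call was lost (adjusted p = 0.179). Zrsr1, a splicing factor retrogene, had a log2 fold change of -0.77 (SE 0.22, adjusted p = 0.0111).

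Sfmbt2, Slc38a4 and Zdbf2 rose without overlap of the libraries. Sfmbt2, a Polycomb group gene (chromosome 2, 10292078 to 10516880, plus strand, mm9), was at 88.3 and 74.9 CPM in KO1 and 34.8 and 32.9 CPM in KO2. In WT it stood at 7.28 CPM at the lowest, 20.0 CPM at the median and 23.5 CPM at the highest, so that it was 2.99-fold higher in KO (log2 fold change 1.58, SE 0.28, adjusted p = 0.000394). Slc38a4, an amino acid transporter gene, was at 75.5 to 80.2 CPM in KO and 40.7 to 58.0 CPM in WT (log2 fold change 0.70, SE 0.13, adjusted p = 0.000526). Zdbf2 was at 173 to 248 CPM in KO and 88.0 to 151 CPM in WT (log2 fold change 0.84, SE 0.09, adjusted p = 5.69e-06). Grb10, an adaptor that dampens insulin signalling, was at 17.7 to 56.9 CPM and 13.6 to 34.2 CPM (log2 fold change 0.82, SE 0.29, adjusted p = 0.0302), and its call was lost without any 1 of 5 libraries (KO1 replicate 2, both of KO2, replicate 1 of 1000 cells and replicate 2 of 10000 cells), with adjusted p of 0.0661 to 0.22. Impact was at 182 and 200.0 CPM in KO1 and 161 and 150.4 CPM in KO2. Its WT level was 171 CPM at the lowest, 194 CPM at the median and 202 CPM at the highest, and the difference was within the spread (log2 fold change -0.12, SE 0.09, adjusted p = 0.277, 1.96 SE interval -0.29 to 0.05). Inpp5f had a log2 fold change of 0.23 (adjusted p = 0.365).

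Some trophoblast and stem cell markers moved in the same comparison. Summed over 7 trophoblast markers, CPM was 44.7 to 52.5 in KO and 6.45 to 18.6 in WT. Eomes held the largest part of the KO sum, at 28.9 and 29.4 CPM in KO1 and 36.5 and 37.8 CPM in KO2. Elf5 had no count in either clone, and Krt7, Tpbpa and Hand1 had means of at most 1.07 CPM in each clone. Cdx2 was at 0.994 to 13.7 CPM in KO and 0 to 1.65 CPM in WT. Of the 3 markers tested 2 were higher, Cdx2 (log2 fold change 4.04, SE 0.99, adjusted p = 0.00437) and Eomes (log2 fold change 2.15, SE 0.24, adjusted p = 6.01e-06). The ligation-based libraries, of WT cells, had a sum of 49.3 to 52.8 CPM. Of 8 stem cell markers 5 were called lower in KO and the rest were not, where 26.4% of all genes tested were lower and 24.6% higher. Klf4 fell most of these, from 314 to 436 CPM in WT to 53.4 to 78.5 CPM in KO. Some markers of this list lay apart between the clones. Nanog was at 929 to 1086 CPM in KO1 and 484 to 713 CPM in KO2, and Sox2 at 202 to 259 CPM and 87.2 to 100 CPM. Zfp42, Esrrb, Klf4 and Dppa5a overlapped between the clones. The paper merged the clones and used a p-value below 0.05 with a limit of 1 on the absolute log2 fold change. It reports Oct4, Nanog and Sox2 as not changed by the KO. The calls given here use an adjusted p without a fold limit, so they are not on the same terms. Of 3 mesoderm or epiblast markers tested 1 was higher, Otx2, a gene of the primed epiblast (log2 fold change 2.76, SE 0.51, adjusted p = 0.000466), and of 3 fibroblast markers tested none was called, while no endoderm marker was tested. The part of these markers in the values of Phlda2, Cdkn1c, Sfmbt2 and Ascl2, which trophoblast cells also express, was not tested.

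The factors that keep imprints, a list of 13 genes, were all tested in KO against WT, and 10 were higher and none was lower, where 24.6% and 26.4% of all genes were called in these directions, with a median log2 fold change of 0.42 (all genes -0.03). The higher share of Rn45s in KO, given above, moves with this list as well, and its part was not tested. The chromatin remodeller Atrx (log2 fold change 2.02, SE 0.12, adjusted p = 1.74e-08), Arid4a (log2 fold change 1.20, SE 0.20, adjusted p = 0.000245), the maintenance DNA methyltransferase Dnmt1 (log2 fold change 1.09, SE 0.10, adjusted p = 6.99e-07) and the histone methyltransferase Setdb1 (log2 fold change 0.84, SE 0.09, adjusted p = 2.72e-06) were among them. In SET-seq without antibody against the in vitro libraries at 37 °C these genes differed too. Their log2 fold changes there were -3.25 for Atrx, -2.70 for Arid4a, -0.74 for Dnmt1 and 0.51 for Setdb1. The part of this difference between kinds of library was not tested. Zfp57 was not called (log2 fold change -0.20, SE 0.10, adjusted p = 0.105), but it differed between the clones, at 192 and 201 CPM in KO1 and 376 and 480 CPM in KO2 (log2 fold change -1.26, SE 0.16, adjusted p = 0.00136). Of 30 other imprinted genes or neighbours in the files 13 were tested, of which 3 were higher and 5 lower. Ddc, next to Grb10 (log2 fold change -1.65), Commd1, which contains Zrsr1 (log2 fold change -0.96), and Cd81, near the Kcnq1 cluster (log2 fold change -0.92), were lower, and Herc3, which contains Nap1l5, was higher (log2 fold change 2.25). Of 5 genes with imprints that rest on H3K27me3 in the files, 4 were tested, 3 were higher and 1 was lower, with a median of 0.73. Sfmbt2 and Slc38a4, given above, are on this list and are among the 3 higher, so it is not a separate set.

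Set against the 8 in vitro libraries tagmentated at 37 °C, which share the low Hprt of KO but come from total RNA, Plagl1, Impact, Peg10 and Igf2 stood higher in KO and Phlda2, Gnas and Slc22a18 lower. Here 24 genes were tested and 18 were called. Of these, 11 were higher in KO, against a background of 32.9% of 10233 genes, and 7 were lower, against 34.4%, with a median of -0.07 over the 24 genes and -0.03 over all. Both comparisons use the same 4 KO libraries, so they are given side by side. Plagl1, lower in KO than in WT SET-seq, was at 1.10 to 7.96 CPM in vitro, which puts KO 12.3-fold above it (log2 fold change 3.62, SE 0.24, adjusted p = 1.86e-13). Peg10 stood at 10.9 to 17.6 CPM in vitro, below every KO library (log2 fold change 2.10, SE 0.16, adjusted p = 1.83e-12). Igf2 and Ndn were likewise lower in KO than in WT SET-seq and higher than in vitro, where they were at 0 to 3.22 CPM and 2.20 to 8.37 CPM, with log2 fold changes of 2.88 (adjusted p = 1.38e-05) and 1.12 (adjusted p = 0.00982). Mcts2 had a log2 fold change of 1.00 (adjusted p = 1.19e-06) against in vitro.

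Impact, with no call against WT SET-seq, was at 22.5 to 32.5 CPM in vitro and 6.13-fold higher in KO (log2 fold change 2.62, SE 0.11, adjusted p = 9.10e-18). Sfmbt2 (log2 fold change 1.74, SE 0.17, adjusted p = 4.41e-10), Kcnq1ot1 (log2 fold change 1.39, SE 0.19, adjusted p = 3.19e-07), Zdbf2 (log2 fold change 0.82, SE 0.09, adjusted p = 8.98e-09) and Ube3a (log2 fold change 0.62, SE 0.11, adjusted p = 1.65e-05) were higher in KO against either reference. Phlda2 (log2 fold change -1.75, SE 0.13, adjusted p = 1.52e-12) and Gnas (log2 fold change -1.94, SE 0.09, adjusted p = 6.97e-17) were lower against either reference. Slc22a18, at 7.69 to 13.2 CPM in vitro, was at least 15.1-fold lower in KO by the same floor of 3 counts. Cdkn1c, higher in KO than in WT SET-seq, was at 24.8 to 38.0 CPM in vitro and did not differ beyond the spread (log2 fold change -0.10, SE 0.19, adjusted p = 0.645). Slc38a4, Ppp1r9a and Grb10, higher in KO than in WT SET-seq, were lower than in vitro, with log2 fold changes of -0.95 (SE 0.10, adjusted p = 3.08e-09), -0.91 (SE 0.26, adjusted p = 0.00333) and -0.75 (SE 0.15, adjusted p = 8.09e-05). Mest was at 2.65 to 8.79 CPM in vitro and was not called (log2 fold change -1.07, SE 0.53, adjusted p = 0.0781).

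**Figure D3:**
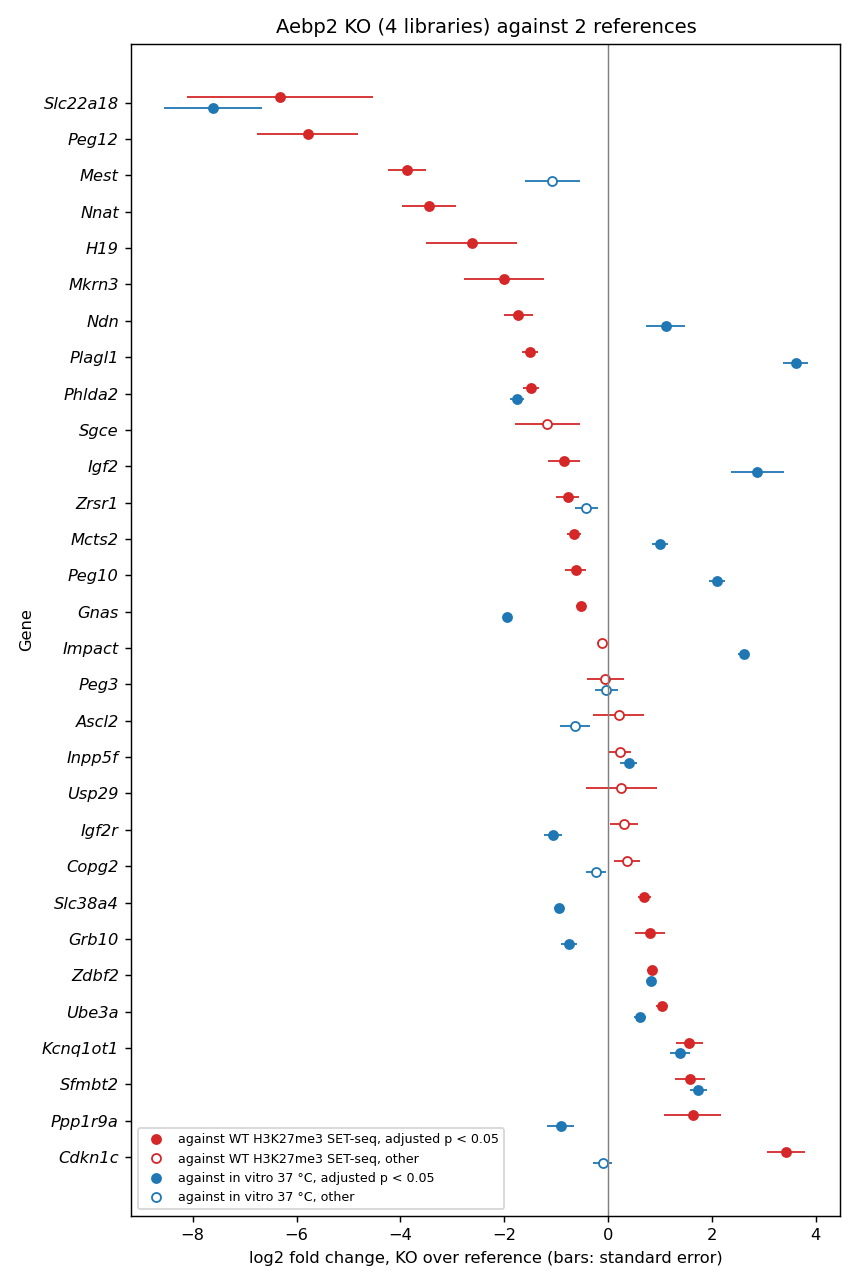
Log2 fold change of the Aebp2 KO libraries against WT H3K27me3 SET-seq (red) and against the in vitro libraries at 37 °C (blue) for the 30 imprinted genes tested, with bars of 1 SE. Filled points have an adjusted p below 0.05. Plagl1, Igf2, Peg10, Ndn and Mcts2 lie left of 0 in red and right of 0 in blue, while Sfmbt2 and Kcnq1ot1 lie right and Phlda2 and Gnas left of 0 in both.

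The comparison of the clones shows how far lines with the same targeted gene differ. Aebp2 itself was lower in KO1 than in KO2 by edgeR's test (log2 fold change -1.49, SE 0.32, adjusted p = 0.0221). Ube3a stood higher and Gnas lower in KO1. Of the 30 genes tested, 2 (6.67%) were called, against 4.16% of all 11446 genes, and 7 had an unadjusted p below 0.05. Ube3a, at the values given above, was higher in KO1 (log2 fold change 0.97, SE 0.18, adjusted p = 0.00981). Gnas was lower in KO1 (log2 fold change -0.74, SE 0.16, adjusted p = 0.0223). In both the libraries of the clones did not overlap, which with 2 libraries each adds no support to the test. The call of Ube3a was lost without KO1 replicate 2 or KO2 replicate 2 (adjusted p = 0.162 and 0.128), and that of Gnas without either of those, without KO1 replicate 1, or without replicate 1 of 1000 or of 10000 WT cells (adjusted p of 0.0502 to 0.228). Among the largest differences not called were Nnat (log2 fold change -2.49, SE 1.10, adjusted p = 0.273), Mest (log2 fold change -1.85, SE 0.84, adjusted p = 0.274), Grb10 (log2 fold change -1.31, SE 0.46, adjusted p = 0.141) and Sfmbt2 (log2 fold change 1.14, SE 0.44, adjusted p = 0.19). The test takes its spread from the KO and the WT H3K27me3 libraries together, so it does not measure the spread within the clones alone. From the 4 KO libraries alone, 4 of 21 imprinted genes tested were called, as were 858 of all genes.

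SET-seq without antibody, which reads cytoplasmic RNA, was compared with the in vitro libraries from total RNA at 37 °C, and the ligation-based libraries, from poly-A RNA with random primers, with the same in vitro libraries. The 2 comparisons share those 8 in vitro libraries. Of 29 genes tested in SET-seq, 25 were called, with 9 higher, against a background of 23.8% of 11980 genes, and 16 lower, against 31.9%, with a median log2 fold change of -0.91 (all genes -0.11). Of 29 genes tested in the ligation-based libraries, 25 were called, with 19 higher, against 43.8% of 11766 genes, and 6 lower, against 38.6%, with a median of 0.82 (all genes 0.09).

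Plagl1, Mest, Peg10 and H19, at or near the lowest levels in vitro, stood higher in both other kinds of library. Plagl1 was at 26.2 to 297 CPM in SET-seq without antibody, at 285 and 272 CPM in the ligation-based libraries and at 1.10 to 7.96 CPM in vitro, so that the in vitro range lay below the others. Plagl1 had a log2 fold change of 4.59 (SE 0.34, adjusted p = 3.82e-08) in SET-seq and of 5.75 (SE 0.12, adjusted p = 2.22e-20) by ligation. Mest was at 25.6 to 85.0 CPM in SET-seq and 141 and 159 CPM by ligation, against 2.65 to 8.79 CPM in vitro. Mest showed a log2 fold change of 3.02 (SE 0.29, adjusted p = 5.27e-07) in SET-seq and of 4.40 (SE 0.12, adjusted p = 3.87e-18) by ligation. Peg10 stood at 23.7 to 133 CPM, at 341 and 334 CPM and at 10.9 to 17.6 CPM in the same order. Peg10 gave a log2 fold change of 1.98 (SE 0.23, adjusted p = 2.71e-06) in SET-seq and of 4.37 (SE 0.08, adjusted p = 1.41e-20) by ligation. H19 was at 0 to 12.3 CPM in SET-seq, at 8.32 and 5.11 CPM by ligation and at 0 to 1.10 CPM in vitro. H19 then had a log2 fold change of 3.68 (SE 0.80, adjusted p = 0.00125) in SET-seq and of 5.07 (SE 0.53, adjusted p = 1.81e-08) by ligation. Its SET-seq call was lost without replicate 1 of 10, 100 or 1000 cells (adjusted p = 1.00 each), where the remaining library of that condition had no H19 count. Ndn, Nnat, Igf2 and Impact were higher in both as well. Ndn stood at a log2 fold change of 2.56 (SE 0.30, adjusted p = 3.36e-06) in SET-seq and of 1.51 (SE 0.19, adjusted p = 2.19e-07) by ligation, Nnat stood at a log2 fold change of 1.98 (SE 0.47, adjusted p = 0.00199) in SET-seq and of 1.31 (SE 0.32, adjusted p = 0.000732) by ligation, Igf2 stood at a log2 fold change of 1.95 (SE 0.60, adjusted p = 0.0117) in SET-seq and of 1.12 (SE 0.42, adjusted p = 0.0191) by ligation, and Impact stood at a log2 fold change of 1.49 (SE 0.30, adjusted p = 0.000518) in SET-seq and of 3.20 (SE 0.08, adjusted p = 1.00e-18) by ligation.

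Cdkn1c, Slc22a18, Ascl2, Phlda2, Grb10 and Gnas were lower than in vitro in both. Cdkn1c was at 0 to 9.24 CPM in SET-seq and 2.77 and 2.30 CPM by ligation, against 24.8 to 38.0 CPM in vitro, without overlap. Cdkn1c thus had a log2 fold change of -3.26 (SE 0.34, adjusted p = 9.57e-07) in SET-seq and of -3.69 (SE 0.18, adjusted p = 5.20e-14) by ligation. Phlda2 was at 30.7 to 292 CPM in SET-seq, 9.24 and 12.8 CPM by ligation and 102 to 128 CPM in vitro, so that its ligation-based level lay below all other libraries of these sets, while the SET-seq range spanned that of the in vitro libraries. Phlda2 on average had a log2 fold change of -0.94 (SE 0.27, adjusted p = 0.00729) in SET-seq and of -3.67 (SE 0.11, adjusted p = 1.68e-17) by ligation. Slc22a18 showed a log2 fold change of -2.03 (SE 0.42, adjusted p = 0.000787) in SET-seq and of -3.54 (SE 0.28, adjusted p = 1.03e-10) by ligation. Ascl2 had a log2 fold change of -1.67 (SE 0.34, adjusted p = 0.000619) in SET-seq and of -3.25 (SE 0.24, adjusted p = 3.02e-11) by ligation, and Grb10 had a log2 fold change of -3.22 (SE 0.25, adjusted p = 5.73e-08) in SET-seq and of -1.08 (SE 0.09, adjusted p = 2.63e-10) by ligation. Gnas had a log2 fold change of -1.24 (SE 0.16, adjusted p = 7.60e-06) in SET-seq and of -2.26 (SE 0.09, adjusted p = 5.25e-16) by ligation. Ppp1r9a had a log2 fold change of -2.03 (SE 0.32, adjusted p = 6.16e-05) in SET-seq and of 0.27 (SE 0.13, adjusted p = 0.0487) by ligation, and the difference between these changes was not tested.

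**Figure D4:**
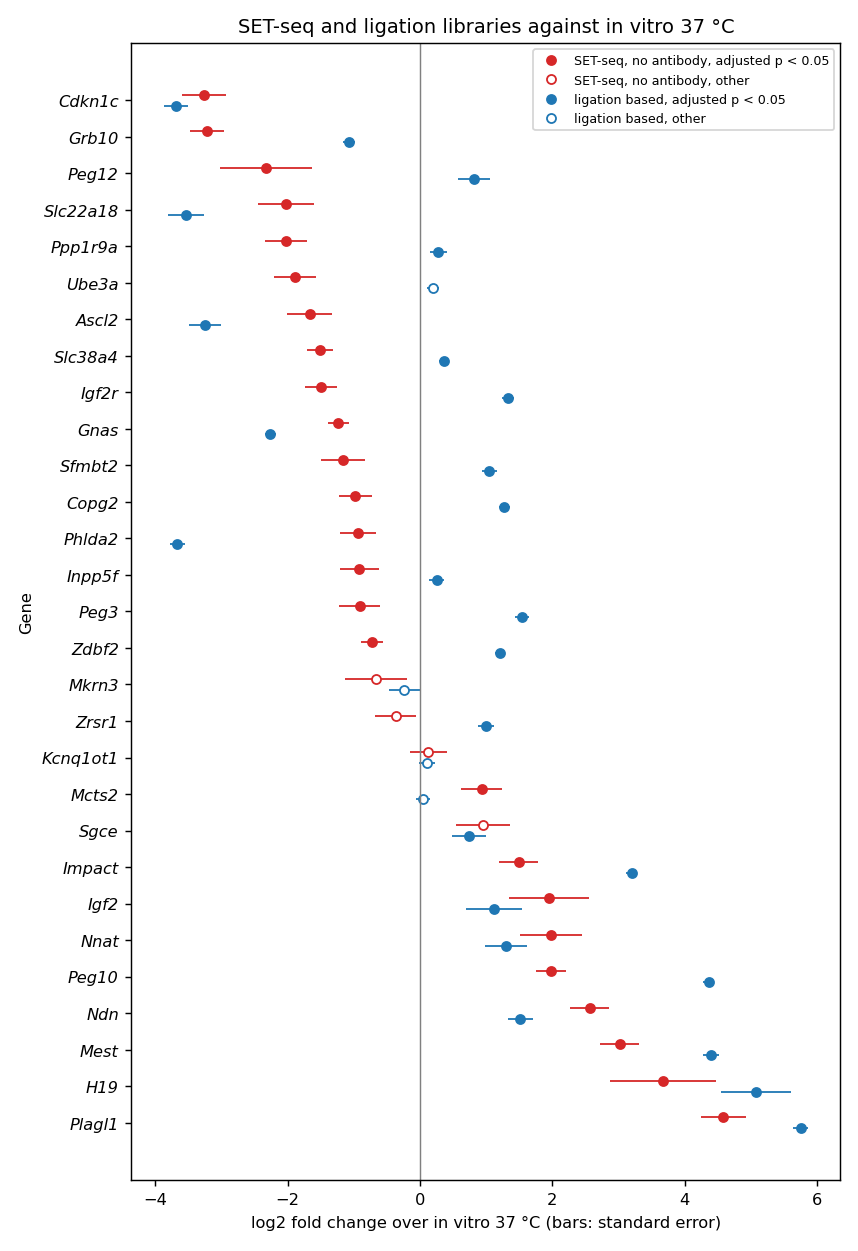
Log2 fold change against the in vitro libraries at 37 °C for SET-seq without antibody and for ligation-based libraries, for the 29 imprinted genes tested, with bars of 1 SE and filled points for an adjusted p below 0.05. Plagl1, Mest, Peg10 and H19 lie far to the right in both, and Cdkn1c, Slc22a18 and Ascl2 far to the left.

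The temperature of tagmentation, a change of library preparation alone on the same kind of RNA, gives a scale for technical differences. Of 26 genes tested between 37 °C and 16 °C, with time as a factor, 15 were called, 13 higher at 37 °C against a background of 32.0% of 11292 genes and 2 lower against 33.2%. The median log2 fold change was 0.29, and -0.02 over all genes. Ube3a was the highest (log2 fold change 1.12, SE 0.08, adjusted p = 4.44e-12), at 89.0 to 139 CPM at 37 °C and 42.8 to 63.2 CPM at 16 °C, and Zdbf2 (log2 fold change 0.91, SE 0.08, adjusted p = 3.16e-11) and Slc38a4 (log2 fold change 0.71, SE 0.06, adjusted p = 9.38e-11) followed. Slc22a18 (log2 fold change -0.78, SE 0.13, adjusted p = 6.71e-06) and Ndn (log2 fold change -0.78, SE 0.19, adjusted p = 0.000679) were lower at 37 °C. Peg12 (log2 fold change 0.71, SE 0.27, adjusted p = 0.0215), Phlda2 (log2 fold change 0.64, SE 0.07, adjusted p = 5.97e-09), Gnas (log2 fold change 0.47, SE 0.06, adjusted p = 1.03e-07), Ppp1r9a (log2 fold change 0.43, SE 0.13, adjusted p = 0.00373) and Impact (log2 fold change 0.43, SE 0.10, adjusted p = 0.000655) were among the higher. The call of Peg12 was lost without replicate 2 of 10 min at 37 °C or replicate 1 of 5 min at 37 °C (adjusted p = 0.079 and 0.0815). Mest and Peg10 had log2 fold changes of 0.08 and 0.08 and were not called.

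The levels of Peg10 and H19 also differed with the number of cells in the 3 WT SET-seq series, which is given as a description without a test. Peg10 was at 112 to 175 CPM in the 6 libraries of 10000 cells and at 23.7 to 78.7 CPM in the 6 of 100 cells, without overlap, and at 42.3 to 133 CPM in those of 1000 cells. H19 was at 6.49 to 13.9 CPM in libraries of 10000 cells and 0 to 8.12 CPM in those of 100 cells. Cdkn1c was at 1.27 to 12.0 CPM and 0 to 9.24 CPM, and Impact at 53.7 to 193 CPM and 63.9 to 235 CPM, with ranges that overlap. The cell number of the KO libraries is not given. KO held 40.9 to 81.3 CPM of Peg10 and 0 to 1.99 CPM of H19, so that for these 2 genes cell number and genotype cannot be told apart. In the WT H3K27me3 series, the reference for KO, other genes also rose from 100 to 10000 cells. Plagl1 went from 124 and 115 CPM to 191 and 185 CPM, and Zdbf2 from 88.0 and 99.1 CPM to 151 and 142 CPM. Plagl1 did not rise in the H3K4me3 series or in that without antibody. The same limit thus holds for other genes, and it was not tested.

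**Figure D5:**
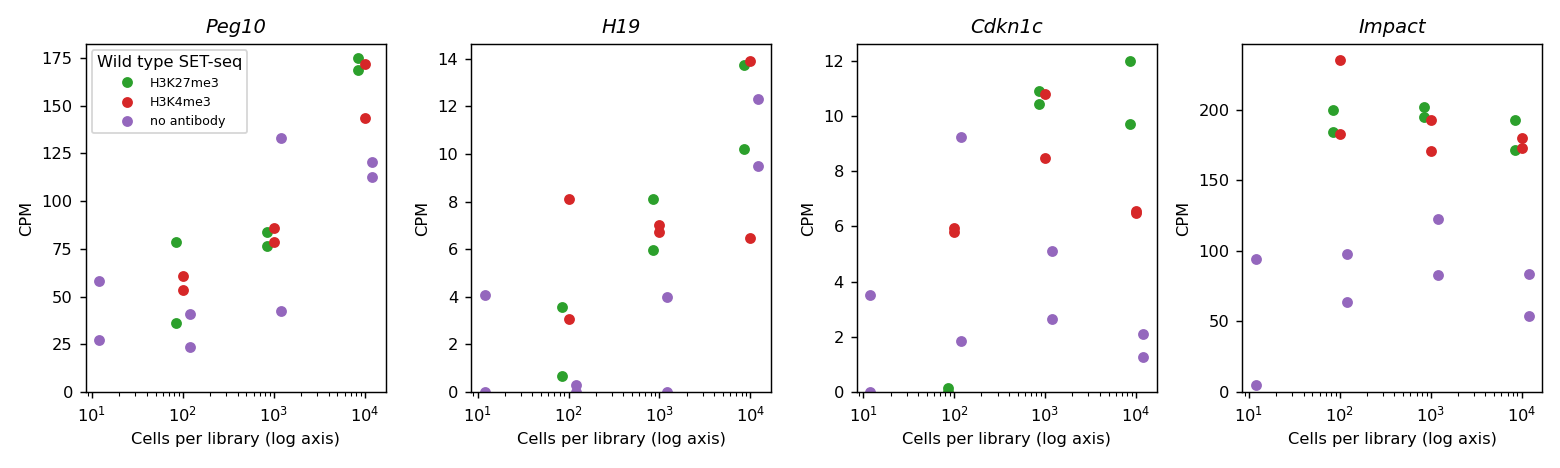
CPM of Peg10, H19, Cdkn1c and Impact against cells per library (log axis) in the 3 WT SET-seq series, with 1 point per library, set slightly apart by series. Peg10 spans 112 to 175 CPM in the 6 libraries of 10000 cells and 23.7 to 78.7 CPM in the 6 of 100 cells, while Impact shows no such order.

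In single cells on Wnt3a beads, 545 of 752 cells passed (more than 1000 and fewer than 5000 genes), 335 in 10 H3K27me3 experiments and 210 in 6 H3K4me3 experiments. The plates used 96 barcodes, of which 80 recurred in more than 1 experiment. Of the 37 genes, 35 were in the matrices, which hold reads rather than molecules and include introns, and Snrpn and Mcts2 were not. The most reads fell on Sfmbt2 (193573 reads), Rasgrf1 (118184), Phlda2 (22502), Usp29 (9408) and Gnas (8985). Sfmbt2 ranged from 3.69 to 4601 CPM over the H3K27me3 experiments (median 119) and from 0 to 63.4 CPM over the H3K4me3 experiments (median 0.485). Rasgrf1, which had at most 16 counts in any bulk library, ranged from 0.797 to 2699 CPM and from 0 to 817 CPM. Experiments of 1 kind thus lay far apart in these 2 genes, and Hprt, with medians of 4.54 CPM in H3K27me3 and 60.0 CPM in H3K4me3 experiments, differed as well.

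Proximal and distal cells were compared in the 14 experiments with both, with reads summed per experiment and position and the experiment as a block. Of the 9 imprinted genes tested, none was called, and of all 4885 genes 0% were called by edgeR, with 180 genes at an unadjusted p below 0.05. By limma none was called and 408 genes had an unadjusted p below 0.05. The log2 fold change of proximal over distal was 1.43 (interval of 1.96 SE -0.61 to 3.46) for Phlda2, which was higher in proximal cells in 10 of 14 experiments, 1.86 (interval of 1.96 SE -0.30 to 4.01) for Impact, 1.26 (interval of 1.96 SE -1.36 to 3.89) for Slc38a4 and 0.96 (interval of 1.96 SE -0.94 to 2.86) for Ppp1r9a. It was 0.11 (interval of 1.96 SE -2.59 to 2.81) for Zdbf2, 0.04 (interval of 1.96 SE -1.12 to 1.20) for Gnas and 0.03 (interval of 1.96 SE -2.48 to 2.55) for Usp29. Sfmbt2 had 0.05 (interval of 1.96 SE -0.95 to 1.05) and Rasgrf1 -0.11 (interval of 1.96 SE -0.88 to 0.67). These intervals are wide.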

How the data were processed

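Bulk RNA was measured in 54 libraries with 2 libraries per condition, and read counts of 752 single cells were used. For the bulk files the authors used Trim Galore for trimming and STAR for alignment to mm9, and per the file headers featureCounts 2.0.0 or 2.0.1 counted read pairs on exons. The deposited values are raw counts, without use of strand, of reads that map to several places or of reads on exons of several genes. The single-cell files hold read counts on exons and introns made by the authors with zUMIs. In all, 0 columns of samples were left unused.

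The 37 genes and all gene lists were chosen with earlier results of these data known. The lists were imprint maintenance, other imprinted neighbours, noncanonical imprinted genes (imprints that rest on H3K27me3), and markers of stem cells, fibroblasts, endoderm, trophoblast and mesoderm or epiblast.

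Rn45s was removed before library sizes. CPM and RPKM were calculated from the remaining counts and the exon lengths in the files. Differences were tested with edgeR 4.0.16 (R 4.3.3, TMM, filterByExpr, quasi-likelihood test, contrasts of condition means) over all genes, with Benjamini-Hochberg adjustment and a threshold of 0.05. A gene can pass filterByExpr through the libraries of a single group, and its direction is then not free. Fold changes are fitted values, and floors of 3 counts and exact 95% intervals cover counting error only. Precision follows depth, given with the groups. The authors describe the pairs of in vitro libraries as biologically independent and the pairs of each KO clone as separate experiments. For the other libraries separate cultures are not stated, so their p-values may measure technical spread. Where a library was left out of a condition, the lone library was taken to have the spread of the other groups. In single cells, counts were summed per experiment and position over at least 3 cells, and doublets were not called.

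Named genes were all called members where 10 or fewer, otherwise the 10 with the largest absolute log2 fold change per comparison. Values per library were given for the 12 most changed in KO and the 5 with the highest RPKM in WT, and other members were named by cluster.

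Alternatives were DESeq2 1.42.0, its size factors, no filter, Rn45s kept, a replicate block, other reference libraries, counts summed per clone, limma 3.58.1 and each library left out. The scripts were tested on simulated data, in which 200 genes were changed. Figures were drawn with matplotlib 3.10.9 in Python 3.11.15.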

Additional observations from a re-analysis of the deposited data

Results flagged for a closer look

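Between the clones, Ube3a differed with a log2 fold change of 0.97 (higher in KO1) and Gnas with -0.74 (lower in KO1), by edgeR's test of that difference with adjusted p = 0.00981 and 0.0223. In the 4 KO libraries, Peg12 of KO1 replicate 1 stood apart at 0.981 CPM, which is 1 count, where the other 3 libraries had none, and Phlda2 of KO2 replicate 2 stood apart as the lowest, at 24.9 CPM. Among 31 groups of libraries examined in this way 2 had such a library, and chance alone gives about 1 group in 20. In the libraries that tested Tn5 amounts, which no comparison above uses, the 3 libraries of replicate 1 had a mean of 43.5 CPM of Mest, where the other in vitro libraries reached 13.1 CPM at most, and a mean of 120.1 CPM of Cdkn1c, where the others reached 38.0 CPM. Causes were not tested.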

How the results depend on the processing

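Counts of imprinted genes called stayed within 1.5 times the values above under all alternatives but these. For KO against WT, 12 were called with counts summed per clone and condition and 14 with an unadjusted p below 0.05 and an absolute log2 fold change above 1. Over all genes, 3687 and 3289 were called in these ways, against 5833 in the main test. For KO1 against KO2, 4 were called from the 4 KO libraries alone and 4 by that unadjusted rule, and leaving out single libraries gave 0 (without KO1 replicate 2 or KO2 replicate 2), 1 (without KO1 replicate 1, or replicate 1 of 1000 or 10000 WT cells) or 6 (without either replicate of 100 WT cells), a range of 0 to 6. Between the clones, 858 of all genes were called from the 4 KO libraries alone, where 21 imprinted genes were tested. By the unadjusted rule 565 were called, and 476 in the main test. The counts over all genes also moved with the libraries left out, so these changes are not particular to imprinted genes. For 37 °C against 16 °C, 8 of 25 tested were called from the 5 min libraries alone, where 3367 of all genes were, against 7370 in the main test. Leaving out single libraries gave 16 to 23 genes for KO against WT, 18 to 27 for SET-seq, 20 to 26 for ligation and 13 to 16 for temperature.

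Directions in KO against WT turned with other reference libraries. Against in vitro libraries at 37 °C the log2 fold change was -0.10 for Cdkn1c, -0.75 for Grb10, 2.88 for Igf2, 1.00 for Mcts2, 1.12 for Ndn, 2.10 for Peg10, 3.62 for Plagl1, -0.91 for Ppp1r9a and -0.95 for Slc38a4. Against ligation-based libraries, an alternative chosen after seeing the data, it was 0.36 for Gnas, 1.85 for Igf2, 1.00 for Mcts2, 1.95 for Phlda2, -1.13 for Ppp1r9a, -1.27 for Slc38a4 and -0.35 for Zdbf2. Against WT SET-seq without antibody it was 0.93 for Igf2 and 0.064 for Zrsr1. Elsewhere Peg12 was at 1.09 in SET-seq with antibody against in vitro, and Ppp1r9a at -0.079 for temperature at 5 min alone. In single cells, where nothing was called, Gnas was at -0.49 (H3K4me3 experiments alone), -0.085 (limma) and -0.18 (no filter), Sfmbt2 at -0.13 (all cells), -0.038 (limma) and -0.16 (no filter), and Usp29 at -0.14 (H3K27me3 experiments alone) and -0.18 (no filter). The cause was not tested.

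With a replicate block, 21 genes were called between KO and WT, 2 between the clones, 25 for SET-seq, 25 for ligation and 15 for temperature. The numbers were not taken to pair the libraries, since deviations of the same number had a correlation above 0.1 in 0 of 10 pairs of conditions for KO against WT (-0.041 to 0.066), 6 of 28 for SET-seq (-0.061 to 0.14), 3 of 10 for ligation (-0.067 to 0.12) and 8 of 28 for temperature (-0.064 to 0.40). Only the Tn5 amounts, in no comparison here, had all 3 pairs above it (0.78 to 0.86). A contrast of 2 groups without condition terms, also chosen after seeing the data, called 21, 24 and 24 genes for KO, SET-seq and ligation. DESeq2's size factors moved the median of all genes by -0.12 in SET-seq against in vitro. Of single values, 1094 kept direction and side of the threshold, 94 lost the call and 28 reversed. Levels below a few CPM in KO rest on single counts at that depth.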
